A study of Mus musculus with 6 samples.

Results

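Matricellular proteins are secreted into the extracellular matrix, where they tune how cells attach, move and respond to growth factors, and they are not themselves its load-bearing fibres. In the adult heart most of them are scarce at rest and are made by activated fibroblasts, macrophages and injured muscle during wound healing, pressure overload and fibrosis. Levels of 10 genes of this class are described here in hearts of mice given angiotensin II (Ang II). Infusion of this hormone raises blood pressure and enlarges the heart. The genes were Postn, Tnc, Sparc, Thbs1, Thbs2, Thbs3, Thbs4, Spp1, Comp and Cilp. They were chosen by gene symbol, with earlier results of these data known, and all 10 were found among the 30914 rows of the expression table.

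The mice were wild-type male C57BL/6J animals, 8 weeks old at the start. Every animal carried an osmotic pump for 4 weeks, which delivered 1 μg/kg of Ang II each minute. The Ang II group (n = 3) received nothing further according to the labels, and the Ang II + Tec group (n = 3) was also given tectochrysin (Tec), a plant flavonoid, at 5 mg/kg during the last 2 weeks. Poly(A) RNA of heart tissue was sequenced, and no heart without Ang II was among the 6 libraries. The comparison therefore asks how the treated hearts differed from hearts given Ang II alone and not from healthy ones. Levels are in FPKM, the fragments of a gene scaled to its transcript length and to the size of the library, so that genes of different length can be compared within a library. Because whole tissue was sequenced, fewer cells of a type and less RNA per cell cannot be told apart in any value below.

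The libraries differed beyond the group labels, and 1 Ang II library stood apart from the other two. The first principal component took up 68.7% of the variance and placed Ang II replicates 1 and 2 at -31.2 and -46.0, whereas the third (19.2) lay among the treated libraries (2.39 to 28.6). Relative depth, read from the spacing of the lowest values, ran from 0.911 to 1.17, and the mitochondrial share of all FPKM was 41.3%, 40.1% and 48.9% in the Ang II libraries and 49.6% to 52.5% with Tec. The defining genes of cardiomyocytes summed to between 7219 and 8654 FPKM in all 6 libraries. Within this sum 3 genes had a lower mean with Tec and 3 a higher one. Myh6 alone ran from 678 FPKM in Ang II replicate 2 to 1491 FPKM in Ang II + Tec replicate 2. The labels do not account for this, and why the library stood apart was not tested, although nearly every call of a member below depends on whether it is included. Member results and those of the genes named with them are therefore given with all 6 libraries and also without Ang II replicate 3. That library was singled out from these same values, for lying near the treated libraries. The fit without it rests on Ang II replicates 1 and 2 alone, with a narrower spread of the members. Its p-values and calls are therefore descriptive and cannot serve as an independent test.

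To show the control regions of these genes beside their levels, the 250 bases before the transcription start are printed for the 3 members with the lowest log2 fold change, Postn, Thbs4 and Cilp, and for Thbs2, which differed least. They are RefSeq starts on GRCm38.p6, read 5′ to 3′ on the strand of the gene: Postn at chr3:54360857-54361106 (plus strand), Thbs4 at chr13:92794819-92795068 (minus strand), Cilp at chr9:65264930-65265179 (plus strand) and Thbs2 at chr17:14694263-14694512 (minus strand). Capitals mark every match, on either strand, to TATAAA, to the AP-1 motif TGANTCA, to the TEAD motif CATTCC, to the CArG box of serum response factor or to the SMAD-type motif CAGACA.
Postn: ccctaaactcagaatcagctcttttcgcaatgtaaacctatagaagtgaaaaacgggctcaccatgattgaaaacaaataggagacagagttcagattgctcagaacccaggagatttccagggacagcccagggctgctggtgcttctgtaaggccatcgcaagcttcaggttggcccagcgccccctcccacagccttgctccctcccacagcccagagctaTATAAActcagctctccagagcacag
Thbs4: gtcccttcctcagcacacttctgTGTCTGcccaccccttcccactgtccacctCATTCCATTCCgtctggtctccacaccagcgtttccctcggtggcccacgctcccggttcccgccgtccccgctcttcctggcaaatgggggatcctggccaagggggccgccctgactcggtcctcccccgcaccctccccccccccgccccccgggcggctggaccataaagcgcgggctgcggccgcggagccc
Cilp: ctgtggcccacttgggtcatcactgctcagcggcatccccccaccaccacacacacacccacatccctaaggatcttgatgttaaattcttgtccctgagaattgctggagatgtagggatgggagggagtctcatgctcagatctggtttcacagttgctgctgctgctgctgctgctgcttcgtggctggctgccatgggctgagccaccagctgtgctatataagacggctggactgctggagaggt
Thbs2: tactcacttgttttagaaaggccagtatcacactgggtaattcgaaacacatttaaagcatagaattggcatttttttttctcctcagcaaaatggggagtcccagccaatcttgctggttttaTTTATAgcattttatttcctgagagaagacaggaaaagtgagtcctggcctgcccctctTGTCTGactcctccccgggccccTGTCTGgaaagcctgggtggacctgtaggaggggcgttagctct
The printed Postn window held TATAAA 26 bases before the start, a position usual for a TATA box. The window of another RefSeq start of Postn (chr3:54359017-54359266), not printed, held none of the 5 motifs. The Thbs4 window held CATTCC 197 and 192 bases before the start, overlapping by 1 base, and the reverse complement of CAGACA at 227 bases, whereas Thbs2 held the reverse complement of TATAAA at 126 bases and that of CAGACA at 67 and 44 bases. None of these letters was present in the Cilp window. Only exact matches were marked, so near matches, such as tatataag towards the end of the Cilp window, are not in capitals. Among the 250-base windows of all 32851 RefSeq starts, 12.4% held TATAAA, 6.75% TGANTCA, 12.6% CATTCC, 1.47% a CArG box and 17.1% CAGACA. The table gave 11 starts for 8 of the 10 members, all but Thbs1 and Comp. No motif of the 5 was shared, as an exact match, by the 3 members printed for their low log2 fold change.

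All 10 genes had a lower mean level with Tec, as did 80% of all tested genes, and in all 10 the pattern was the same: Ang II replicates 1 and 2 were the highest libraries, and Ang II replicate 3 lay with or near the treated hearts. The summed level of the members was 647, 793 and 112 FPKM in the Ang II hearts and 77.1, 109.8 and 70.7 FPKM in the Ang II + Tec hearts. Ang II replicate 3 lay inside the Ang II + Tec range in 7 genes and above it in Tnc, Sparc and Cilp. Among all 13089 tested genes, 49.7% also had Ang II replicates 1 and 2 above the other 4 libraries, and 27.8% had in addition Ang II replicate 3 inside the Ang II + Tec range, so the arrangement of libraries itself was common. The plot of member levels by library shows it gene by gene.

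**Figure D1:**
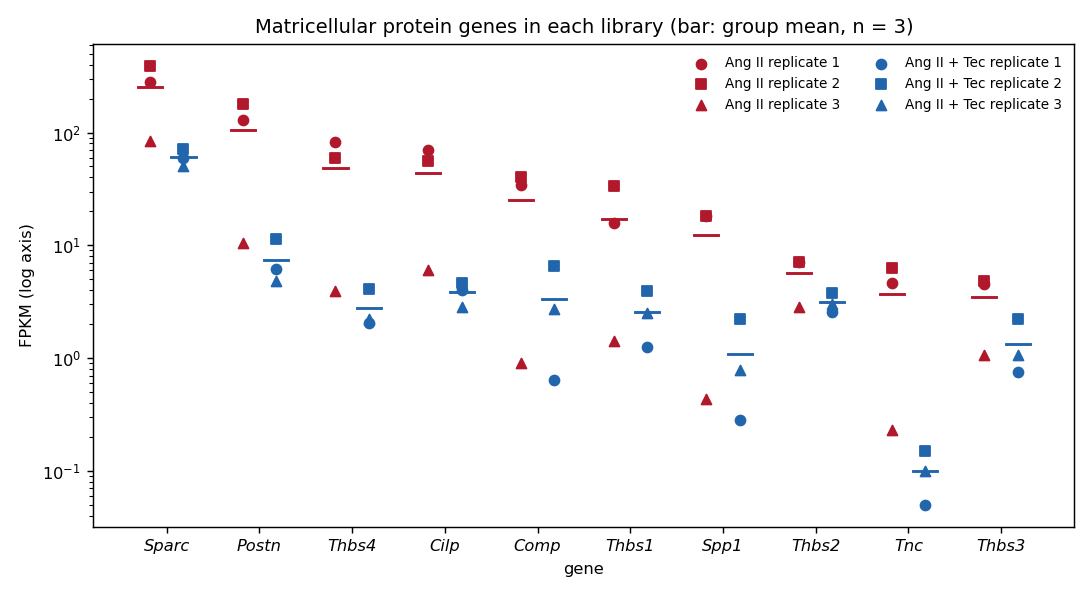
FPKM of the 10 matricellular protein genes (log axis) in the 3 Ang II libraries (red) and the 3 Ang II + Tec libraries (blue), with a bar at each group mean and the genes ordered by their Ang II mean. Ang II replicates 1 and 2 are the highest points in every gene, Ang II replicate 3 lies inside the blue range in 7 genes, and Ang II + Tec replicate 2 is the highest blue point in all 10.

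Tests were run with limma on log2(FPKM + 1) over all genes with at least 0.5 FPKM in at least 3 libraries, and a gene was called differentially expressed where its Benjamini-Hochberg adjusted p was under 0.05 and its level differed by 1 or more on that log2 scale. With all 6 libraries, 0 of the 9 tested members were called, where 0.16% of all tested genes were called and 0.0764% were called lower. At an unadjusted p under 0.05, 4 of the 9 (Postn, Sparc, Thbs4 and Cilp) were lower with Tec and none was higher, beside 16.5% of all tested genes lower and 18.6% in either direction. A log2 fold change of -1 or lower was found in 7 of the 9, all but Thbs2 and Thbs3, and in 1.47% of all tested genes. The median log2 fold change was -1.97 over the 9 members and -0.17 over all tested genes. Because the members were chosen with earlier results of these data known, these contrasts with all tested genes are descriptive and not an independent test.

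Without Ang II replicate 3, 8 of the 9 tested members were called, all lower with Tec, beside 3.76% of all tested genes called lower and 4.26% called in either direction in the same fit. The exception was Thbs2, whose log2 fold change of -0.99 (limma adjusted p = 0.0061) ended just short of the fold limit. The median over the 9 members was then -3.31, and that over all tested genes -0.24. Leaving out any other single library called no member. Since the omitted library was picked for its likeness to the treated hearts, more calls and lower p-values follow in part from that choice. The plot of fold changes sets both fits beside each other.

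**Figure D2:**
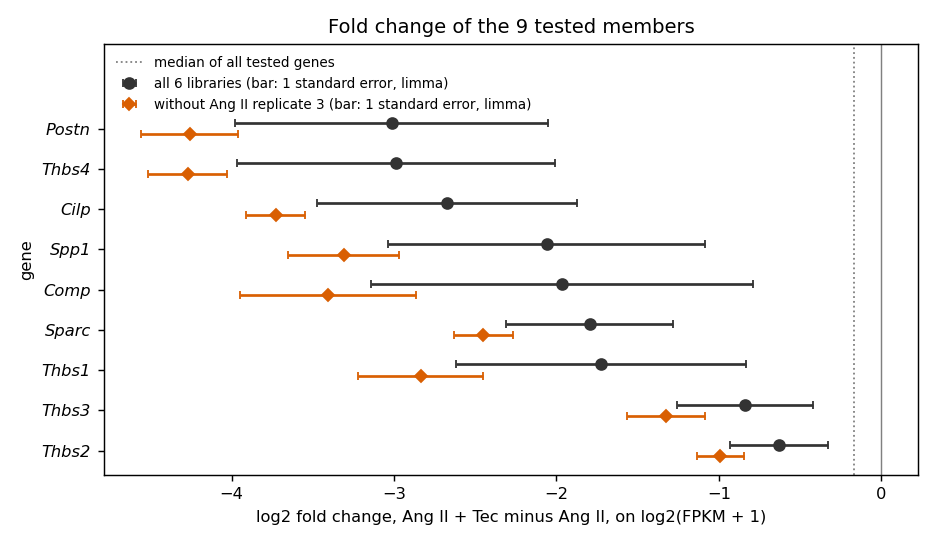
Log2 fold change of the 9 tested members, Ang II + Tec minus Ang II on log2(FPKM + 1), with all 6 libraries (grey) and without Ang II replicate 3 (orange); bars are 1 standard error from limma and the dotted line is the median of all tested genes. Every point lies below that median of -0.17, and without Ang II replicate 3 each estimate is lower and its bar shorter.

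Postn (chr3:54361109-54391037, plus strand, GRCm38, as in GENCODE M21 for all members but Tnc) encodes periostin, the secreted adhesion protein by which activated cardiac fibroblasts are commonly recognised and which helps collagen fibres to cross-link. The Ang II hearts had 129.7, 178 and 10.5 FPKM and the Ang II + Tec hearts 6.13, 11.3 and 4.84 FPKM. Ang II replicates 1 and 2 stood far above every treated heart, but the groups overlapped, since the remaining Ang II heart was lower than Ang II + Tec replicate 2. The mean was 106 ± 86.3 FPKM (SD, n = 3) against 7.41 ± 3.4 FPKM (SD, n = 3), and the log2 fold change of -3.02 (SE 0.96, 95% confidence interval -5.27 to -0.76) had a limma adjusted p of 0.224. An exact two-sided permutation test of the 6 values gave p = 0.2, where 0.1 is the smallest p that 3 against 3 allows. Only 3 of the 13089 tested genes had a lower log2 fold change. With that Ang II heart left out it was -4.26 (limma adjusted p = 0.000556).

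Tnc (chr4:63959785-64020725, minus strand, as the expression table lists it, where GENCODE M21 extends the gene to 64047015) encodes tenascin-C, a large hexameric glycoprotein that loosens cell adhesion and appears at sites of active matrix rebuilding. It had the widest span of the members, with 4.63, 6.29 and 0.23 FPKM in the Ang II hearts and 0.05, 0.15 and 0.10 FPKM in the Ang II + Tec hearts. All 3 Ang II hearts were above all 3 treated hearts, although the value in Ang II replicate 3 was close to the treated ones and all 4 of these are very low. Tnc reached 0.5 FPKM in only 2 libraries and so was not tested with the other genes. The difference of the group means on log2(FPKM + 1) was -1.75, with p = 0.1 in the exact permutation test, and -2.54 without Ang II replicate 3. In a fit with no filter on low values its limma adjusted p was 0.408 (unadjusted p = 0.0337).

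Sparc (chr11:55394500-55423183, minus strand) encodes osteonectin, a collagen-binding protein that assists the maturation of collagen fibrils. It was the most abundant member in every library. The Ang II hearts had 281, 389 and 84.3 FPKM and the Ang II + Tec hearts 59.4, 70.9 and 50.6 FPKM. The groups did not overlap, and the treated hearts varied little, with a mean of 60.3 ± 10.2 FPKM (SD, n = 3) against 252 ± 155 FPKM (SD, n = 3). The log2 fold change was -1.80 (SE 0.51), with a limma adjusted p of 0.218 and p = 0.1 in the exact permutation test. Leaving out Ang II replicate 3 gave -2.45 (limma adjusted p = 0.000741).

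Cilp (chr9:65265180-65280605, plus strand) encodes cartilage intermediate layer protein, a matrix protein of cartilage that cardiac fibroblasts also secrete and that binds TGF-β. The Ang II hearts had 69.5, 55.7 and 6.04 FPKM and the Ang II + Tec hearts 4.01, 4.62 and 2.85 FPKM. Here too no treated heart reached the lowest Ang II heart, although the gap between Ang II replicate 3 and Ang II + Tec replicate 2 was small beside the gap between Ang II replicate 3 and the other two Ang II hearts. The log2 fold change of -2.67 (SE 0.80, 95% confidence interval -4.55 to -0.80) had a limma adjusted p of 0.221 and p = 0.1 in the exact permutation test. It was -3.73 without Ang II replicate 3 (limma adjusted p = 0.00011). Together with Tnc and Sparc, Cilp was 1 of the 3 members whose groups did not overlap. Sparc and Cilp were the only 2 among the 9 tested members, and 18.9% of all tested genes also lay wholly lower with Tec.

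Spp1 (chr5:104435118-104441050, plus strand) encodes osteopontin, a phosphorylated integrin and CD44 ligand made mainly by macrophages in injured tissue. Its values were 18.31, 18.25 and 0.43 FPKM in the Ang II hearts and 0.28, 2.22 and 0.78 FPKM in the Ang II + Tec hearts. Ang II replicates 1 and 2 were almost equal, and the highest treated heart exceeded the remaining Ang II heart. The log2 fold change was -2.06 (SE 0.98, limma adjusted p = 0.295), and p = 0.3 in the exact permutation test. The fit without Ang II replicate 3 gave -3.31 (limma adjusted p = 0.00218). A provisional transcript on the same strand, Gm42793, shares 18.8% of the annotated exon bases of Spp1 and was listed at 0 in all 6 libraries.

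The thrombospondins are calcium-binding glycoproteins in 2 subgroups. Thbs1 and Thbs2 form trimers, restrain the growth of blood vessels and bind CD36 and CD47, and thrombospondin-1 can also activate latent TGF-β. Thbs3, Thbs4 and Comp (thrombospondin-5) form pentamers. Their 5 genes summed to 144, 146 and 10.1 FPKM in the Ang II hearts and to 7.24, 20.6 and 11.6 FPKM in the Ang II + Tec hearts.

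Thbs4 (chr13:92751590-92794818, minus strand), which is induced in muscle and heart under load, had the largest difference of the 5. The Ang II hearts had 82.6, 59.7 and 3.92 FPKM and the Ang II + Tec hearts 2.05, 4.08 and 2.24 FPKM. Ang II replicate 3 lay just below the highest treated heart, so the groups overlapped by that pair alone. The log2 fold change was -2.99 (SE 0.98, 95% confidence interval -5.28 to -0.69, limma adjusted p = 0.228), and p = 0.2 in the exact permutation test. Leaving that Ang II heart out gave -4.27 (limma adjusted p = 0.000233).

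Comp (chr8:70373558-70382066, plus strand), the cartilage oligomeric matrix protein of tendon and cartilage, had levels of 34.3, 40.03 and 0.90 FPKM in the Ang II group and 0.64, 6.59 and 2.71 FPKM in the Ang II + Tec group. It was the member with the widest spread among treated hearts, a 10.3-fold span, and 2 of them were above Ang II replicate 3. Its log2 fold change of -1.97 had the largest standard error of the 9 tested members, 1.17, and a confidence interval that included 0 (-4.72 to 0.79, limma adjusted p = 0.367). It was -3.41 without Ang II replicate 3 (limma adjusted p = 0.00746).

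Thbs1 (chr2:118111876-118127133, plus strand) had levels of 15.8, 33.9 and 1.41 FPKM in the Ang II group and 1.25, 3.96 and 2.5 FPKM in the Ang II + Tec group. As in Comp, 2 treated hearts were above Ang II replicate 3. Its difference on the log2 scale was -1.73 (SE 0.89, limma adjusted p = 0.320), and -2.83 when that library was left out (limma adjusted p = 0.00484). Thbs3 (chr3:89215180-89226837, plus strand) was at 4.50, 4.85 and 1.07 FPKM against 0.75, 2.20 and 1.07 FPKM, so Ang II replicate 3 equalled a treated heart. Its log2 fold change was -0.84 (SE 0.42, limma adjusted p = 0.309), and -1.33 without Ang II replicate 3 (limma adjusted p = 0.0105). Exons of Mtx1 on the opposite strand cover 6.59% of its exon bases, and Mtx1 stayed between 3.20 and 4.14 FPKM in all libraries. Whether fragments were assigned by strand is not given in the sources used here.

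Thbs2 (chr17:14665500-14694235, minus strand) varied least of the 10. The Ang II hearts had 7.10, 7.13 and 2.83 FPKM and the Ang II + Tec hearts 2.55, 3.76 and 3.03 FPKM, a span of 2.80-fold between the highest and the lowest library, where the other members spanned between 6.47-fold (Thbs3) and 126-fold (Tnc). The log2 fold change was -0.63 (SE 0.30, limma adjusted p = 0.296).

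The make-up of the thrombospondin pool differed between libraries. Thbs4 made up 57.2%, 41.0% and 38.7% of the summed thrombospondin FPKM in the Ang II hearts and 28.3%, 19.8% and 19.4% in the Ang II + Tec hearts, and this share did not overlap between the groups, with Ang II replicate 3 on the side of its own group. Thbs2 made up 4.92%, 4.90% and 27.9% against 35.2%, 18.3% and 26.2%, and here Ang II replicate 3 lay among the treated hearts. Thbs1 and Thbs2 together ran from 15.9% in Ang II replicate 1 to 52.5% in Ang II + Tec replicate 1, and the Comp share from 8.84% to 32.01%, both extremes in treated hearts. These shares were formed after the levels were seen and were not tested.

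**Figure D3:**
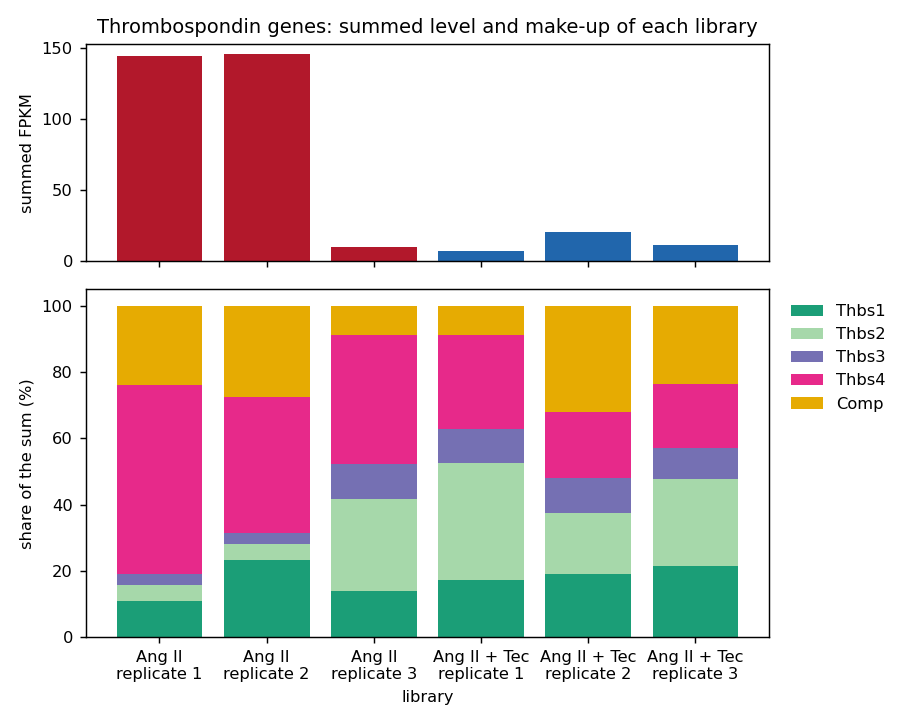
Upper panel, summed FPKM of Thbs1, Thbs2, Thbs3, Thbs4 and Comp in each library (Ang II red, Ang II + Tec blue); lower panel, the share of each gene in that sum in percent. The sum is 144 and 146 FPKM in Ang II replicates 1 and 2 and at most 20.6 FPKM elsewhere, and the Thbs4 share is lower in each Ang II + Tec library than in each Ang II library.

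The order of the members was led by Sparc and Postn in every library. In the Ang II group Thbs4, Cilp, Comp, Thbs1, Spp1, Thbs2, Tnc and Thbs3 followed by mean level, and no neighbours in that order differed by more than the larger of their SDs. In the Ang II + Tec group the order was Sparc, Postn, Cilp, Comp, Thbs2, Thbs4, Thbs1, Thbs3, Spp1 and Tnc, and only the steps from Sparc to Postn and from Postn to Cilp exceeded it. Thbs4 was the third most abundant member in Ang II replicates 1 and 2 and the seventh in Ang II + Tec replicate 3, whereas Thbs2 was the eighth in Ang II replicates 1 and 2 and the third in that treated heart. Sparc alone made up 43.4% and 49.1% of the member FPKM in Ang II replicates 1 and 2 and between 64.6% and 77.0% in the other 4 libraries.

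Genes that work with these proteins were read from 4 lists, and no gene of any list was called with all 6 libraries. Beside the counts below, 80% of all tested genes had a lower mean on log2(FPKM + 1), the scale on which means are compared here, 16.5% were lower at an unadjusted p under 0.05, and 3.76% were called lower without Ang II replicate 3. The CCN family, a related group of matricellular regulators, had a lower mean with Tec in 5 of 5 tested genes, with an unadjusted p under 0.05 in 1 and a median log2 fold change of -0.84 (-1.34 without Ang II replicate 3). Ccn5 was the lowest at -1.93 (SE 1.12), and -3.34 without that library, and Ccn3 the highest at -0.39 (SE 1.02), and -1.11 without it. Ccn2, the connective tissue growth factor, had broadly overlapping groups, with 155, 457 and 17.9 FPKM against 48.4, 134 and 34.2 FPKM. Its log2 fold change was -0.84 (SE 1.09, limma adjusted p = 0.65) with all libraries and -2.12 without Ang II replicate 3, where it was called lower (limma adjusted p = 0.0398). In that fit 4 of the 5 were called lower, beside 3.76% of all tested genes.

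Among other matricellular and adhesive glycoproteins, 18 of 22 tested genes had a lower mean and 4 a higher one. An unadjusted p under 0.05 was reached by 7 lower genes and 1 higher gene, and 9 of the 22 were called lower without Ang II replicate 3. The median log2 fold change was -0.52, and -0.88 without that library. Ptn, the heparin-binding growth factor pleiotrophin, had the lowest log2 fold change (-2.65, SE 0.80, limma adjusted p = 0.221), with 30.6, 24.1 and 2.30 FPKM against 0.73, 2.19 and 0.92 FPKM and no overlap. It was -3.68 without Ang II replicate 3 (limma adjusted p = 0.000556). Fn1, fibronectin, followed at -2.04 (SE 0.80), and at -3.00 without that library (limma adjusted p = 0.00484). Smoc2, a relative of Sparc, went the other way, with 9.05, 9.03 and 8.91 FPKM in the Ang II hearts and 13.1, 10.1 and 10.7 FPKM in the Ang II + Tec hearts, no overlap and a log2 fold change of 0.29 (SE 0.12, limma adjusted p = 0.268). In Smoc2 Ang II replicate 3 lay with its own group, and the log2 fold change without it was 0.28 (limma adjusted p = 0.137).

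Of the receptors through which matricellular proteins act, 15 of 18 tested genes had a lower mean and 3 were lower at an unadjusted p under 0.05, shares near the 80% and 16.5% of all tested genes. The median log2 fold change was -0.38, and -0.55 without Ang II replicate 3. Itgav, the αV integrin chain that binds periostin and osteopontin, was at -0.72 (SE 0.30), Sdc1 (syndecan-1) at -0.70 (SE 0.41) and Cd44, an osteopontin receptor, at -0.69 (SE 0.33). Without Ang II replicate 3 these were -1.05, -1.21 and -1.09, and all 3 were called lower (largest limma adjusted p = 0.00985). Cd47, a thrombospondin-1 receptor, was at 11.2, 11.6 and 8.72 FPKM against 7.33, 8.18 and 7.40 FPKM, without overlap (log2 fold change -0.41, SE 0.13, limma adjusted p = 0.229, and -0.52 without Ang II replicate 3). Cd36, a thrombospondin receptor and the fatty acid transporter of cardiomyocytes and endothelium, had the highest log2 fold change of the list, 0.37 (SE 0.16, limma adjusted p = 0.271), with 196, 188 and 271 FPKM against 267, 290 and 280 FPKM. It was 0.54 without Ang II replicate 3 (limma adjusted p = 0.01), under the fold limit. Itgb3, a partner chain of Itgav but not its only possible one, was too low to be tested and stayed under 1 FPKM in every library. Leaving out Ang II replicate 3, 4 of the 18 receptor genes were called lower.

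Activators and upstream ligands, among them the TGF-β family, had a lower mean in 17 of 17 tested genes, where 80% of all tested genes did, with an unadjusted p under 0.05 in 2 (16.5% of all tested genes) and a median log2 fold change of -0.39 (-0.57 without Ang II replicate 3). Ltbp2, an elastic fibre protein named for its family, the latent TGF-β binding proteins, was lowest at -2.10 (SE 0.88). Tgfb3 followed at -1.09 (SE 0.49), and Tgfb1 was at -0.39 (SE 0.16). Smad3, which carries the TGF-β signal to the nucleus, was the highest at -0.02 (SE 0.15). With Ang II replicate 3 left out these were -3.23, -1.72, -0.55 and -0.11, and 4 of the 17 genes were called lower.

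Markers of the cells that make or neighbour these proteins were highest in the same libraries as the members. Fibroblast markers (Pdgfra, Tcf21, Dcn, Lum, Col1a1, Col1a2, Col3a1, Ddr2) summed to 648, 854 and 163 FPKM in the Ang II hearts and to 137, 225 and 153 FPKM in the Ang II + Tec hearts. The mean was lower in 8 of 8, with an unadjusted p under 0.05 in 4 and 5 called lower without Ang II replicate 3 (3.76% of all tested genes). Those 4 were the matrix genes Lum, Col1a1, Col1a2 and Col3a1. Tcf21, Dcn, Pdgfra and Ddr2 differed less, with log2 fold changes of -0.81, -0.55, -0.35 and -0.17. Without Ang II replicate 3 they were at -1.27, -0.97, -0.60 and -0.31, and only Tcf21 among them was called. Pdgfra, Tcf21 and Ddr2 held little of the sum, at most 12.2 FPKM each in any library. Activated fibroblast markers (Col8a1, Fap, Acta2, Ltbp2, Meox1, Cthrc1, of which Ltbp2 is also in the list of upstream ligands) had an unadjusted p under 0.05 in 5 of 6 and 4 called lower without that library. They summed to 156, 277 and 66.7 FPKM against 43.8, 137 and 52.9 FPKM, but Acta2, a gene of smooth muscle as well, held much of this sum (128 FPKM in Ang II + Tec replicate 2), and the other 5 summed to 83.1, 141 and 10.2 FPKM against 11.04, 9.53 and 6.68 FPKM. In the fibroblast sum and in both forms of the activated fibroblast sum Ang II replicate 3 lay inside the treated range, as it did in 7 members. Macrophage markers (Adgre1, Cd68, Csf1r, Mrc1, C1qa, Lyz2) summed to 262, 414 and 203 FPKM against 149, 142 and 156 FPKM, with an unadjusted p under 0.05 in 6 of 6 and 4 called lower without Ang II replicate 3, and for this sum Ang II replicate 3 was above all treated hearts. Spp1, which is known as a macrophage product, did not share that separation.

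Other tissue regions also differed between the libraries. Atrial markers (Myl7, Myl4, Sln, Nppa) summed to 6204, 10253 and 256 FPKM in the Ang II hearts and to 906, 5032 and 128 FPKM in the Ang II + Tec hearts, and most of each sum was Nppa, which hypertrophied ventricles also make. Myl7, Myl4 and Sln alone summed to 636, 797 and 0.61 FPKM against 0.29, 1544 and 2.62 FPKM, with Myl7 listed at 0 in Ang II replicate 3 and in Ang II + Tec replicate 1. The library with the highest sum of these 3, Ang II + Tec replicate 2, was the highest treated library in all 10 members and had 11.3 FPKM of Postn, against 129.7 and 178 FPKM in Ang II replicates 1 and 2. Markers of cartilage, tendon and valve summed to 64.3, 62.8 and 3.61 FPKM against 3.67, 17.9 and 8.77 FPKM, and in this sum as in Comp, Ang II + Tec replicates 2 and 3 were above the other treated heart and above Ang II replicate 3. Smooth muscle markers summed to 81.5, 200 and 55.1 FPKM against 33.2, 130 and 48.5 FPKM, whereas endothelial markers stayed between 66.7 and 76.3 FPKM. The part of these markers in the member levels was not tested.

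**Figure D4:**
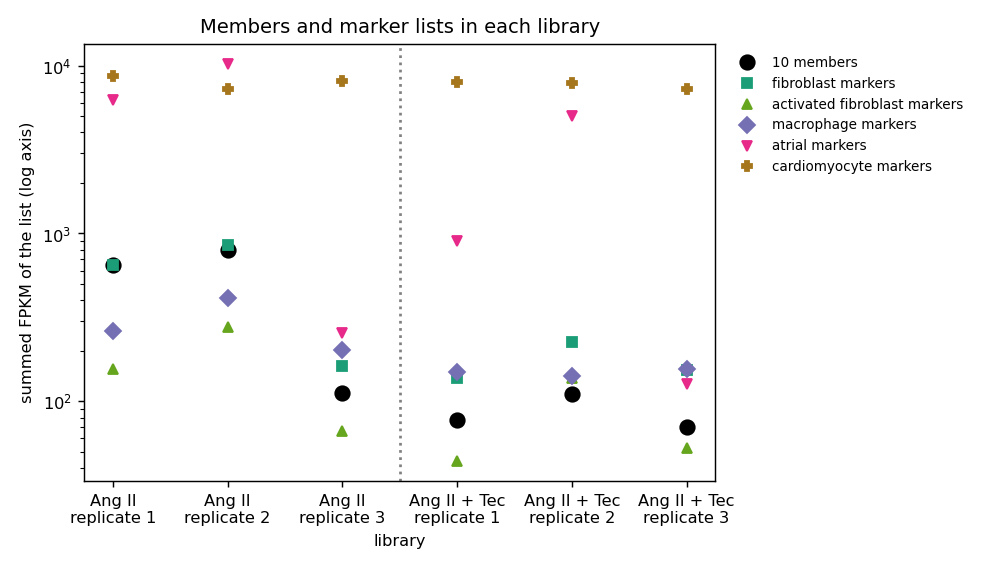
Summed FPKM (log axis) of the 10 members (black) and of fibroblast, activated fibroblast, macrophage, atrial and cardiomyocyte markers in each library, with a dotted line between the Ang II and the Ang II + Tec libraries. The members and the fibroblast markers are highest in Ang II replicates 1 and 2, the cardiomyocyte markers lie between 7219 and 8654 FPKM throughout, and the atrial markers, mostly Nppa, span from 128 to 10253 FPKM.

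The genes most like the members were found by Pearson correlation, over the 6 libraries, with the mean standardised profile of the 9 tested members. They were Pmp22, a membrane protein of myelin and of many growing cells (r = 0.9997), Eif2ak2, the double-stranded RNA sensor kinase PKR (r = 0.9996), Cybc1, a chaperone of the phagocyte oxidase (r = 0.999), Eml4, a microtubule-binding protein (r = 0.999), and Rps6kc1 (r = 0.999). The members themselves correlated with this profile at 0.971 (Comp) to 0.996 (Thbs2), each tested member being part of it. Of 13080 other tested genes 182 exceeded 0.99 and 1854 exceeded 0.95, and the profile is set by the high values in Ang II replicates 1 and 2. Pmp22 was at 42.3, 45.3 and 22.9 FPKM against 21.0, 25.9 and 22.2 FPKM, the same arrangement of libraries over a span much narrower than that of most members.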

How the data were processed

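Heart poly(A) RNA of 3 Ang II and 3 Ang II + Tec mice was sequenced as paired ends. Per the labels the instrument was an Illumina NovaSeq, whereas the study's methods name a HiSeq and state that Cutadapt removed adapters and low-quality reads and FastQC checked the rest. The submitters' processing notes list HISAT2 2.0, StringTie 1.3.0, Bowtie 0.12.2 and the build mm8, without roles. The deposited table holds FPKM per gene made by the authors, 1 column per library with no replicate pooled and no counts. Its coordinates equal GENCODE M21 on GRCm38 for 27947 of the 30832 shared genes (90.6%), so positions are given on GRCm38 as the table lists them. The total read number is unknown, and relative depth was read from the spacing of low FPKM values multiplied by transcript length.

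Genes with at least 0.5 FPKM in at least 3 of 6 libraries (13089) were tested on log2(FPKM + 1), a scale that understates the change of low genes, with limma 3.58.1 (lmFit and eBayes with a mean trend) in R 4.3.3, and p-values were adjusted by Benjamini-Hochberg over all of them. Fits that leave out a library kept the same 13089 genes. Exact two-sided permutation tests of single genes and pandas 2.3.3 and matplotlib 3.10.9 completed the work. The fit was also run on simulated data with independent errors for each gene. Since no library was shifted as a whole there, that run does not bear on the place of Ang II replicate 3. The labels do not say how the hearts were divided, and p-values measure the spread between these samples.

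The members and the lists (CCN family, other glycoproteins, receptors, activators and upstream ligands, and cell type markers) were chosen with earlier results of these data known. All members are named; of each pathway list, the 2 tested genes with the lowest and the 1 with the highest log2 fold change are named, with Ccn2, Fn1, Cd36, Cd47, Cd44, Itgb3 and Tgfb1, and of the likeness search the 5 highest. Promoters are from RefSeq (GRCm38.p6). Of the alternatives, 17 were planned (pseudocount, filter, scaling, variance model, library weights, replicate block and each library left out), and 1, the median-of-ratios scaling without Ang II replicate 3, was chosen after seeing the data.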

Additional observations from a re-analysis of the deposited data

How the results depend on the processing

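The 10 members kept a lower mean with Tec under all alternatives in which they had a value, and none of the 163 member values changed direction. No member was called under 15 of the 18 alternatives. The exceptions were the omission of Ang II replicate 3 (8 of 9 called), the same with median-of-ratios scaling (8 called) and array weights (7 called), in which Thbs2 and Comp were not called. Members with an unadjusted p under 0.05 numbered 4 at first, 9 in each of these fits, and 2 without Ang II replicate 1. Median-of-ratios scaling moved the median of all tested genes from -0.17 to 0.002 and that of the 10 members from -1.88 to -1.70. The share of all tested genes with a lower mean, 80% on the FPKM scale, therefore depends on the scaling.

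With any single library left out, genes called ranged from 2 to 557 (21 with all libraries), those higher with Tec from 2 to 65 (11) and those lower from 0 to 492 (10), members called from 0 to 8 and members with an unadjusted p under 0.05 from 2 to 9. The counts were 3, 7 and 557 without Ang II replicates 1, 2 and 3 and 4, 2 and 3 without Ang II + Tec replicates 1, 2 and 3. In that range Postn lay between -4.26 and -2.28 and Thbs2 between -0.99 and -0.45. With no filter on low values 3 genes were called, 3 higher and 0 lower, among 27760 tested genes. Without the mean trend 7 genes were called higher. Array weights, whose estimation stopped before it converged, called 522 genes, 51 higher and 471 lower, with 9 members at an unadjusted p under 0.05. The weights ran from 0.118 in Ang II replicate 1 to 9.96 in Ang II + Tec replicate 3. Ang II replicate 3 had 0.383 and Ang II replicate 2 had 1.51. Ang II replicate 3 was thus not the library with the lowest weight, and the fit leaned most on Ang II replicate 2 and Ang II + Tec replicate 3. Median-of-ratios scaling without Ang II replicate 3 called 339, 119 higher and 220 lower. The cause of these changes was not tested.

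The labels number the replicates 1 to 3 in each group and name no pairs, so the numbers were not taken as pairs. Deviations from the group means correlated between equal numbers at -0.0394, 0.429 and 0.379. Of the 3 Ang II + Tec libraries, 2 correlated best with their own number, which does not settle whether the numbers are pairs. With the replicate block 22 genes and 0 members were called, and 8 members had an unadjusted p under 0.05.

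With 3 hearts a group, the exact test cannot pass 0.05. The levels of Tnc and Spp1 in treated hearts were low (means of 0.1 and 1.09 FPKM), and those of Tnc rest on few fragments. Without a library from hearts free of Ang II, a level cannot be placed against a healthy heart.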

Other observations

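Markers of further cell types also differed between the libraries. Skeletal muscle markers, of which Myh4 was not among the rows, summed to 7.64, 43.2 and 0.65 FPKM in the Ang II hearts and to 11.9, 12.2 and 13.3 FPKM with Tec, and the 3 tested genes did not go the same way. Atp2a1 (0.1, 0.07 and 0.07 against 6.3, 7.51 and 7.46 FPKM) and Mylpf were called higher with Tec, and both passed the filter on low values with the help of the treated libraries. Tnnt3, which held most of the sum in Ang II replicates 1 and 2, had 6.91, 42.4 and 0.30 FPKM against 1.41, 1.04 and 1.31 FPKM (log2 fold change -1.77, limma adjusted p = 0.378). Adipocyte markers summed to 11.8, 33.3 and 0.86 FPKM against 0.23, 77.5 and 2.62 FPKM, and mesothelial markers to 1.6, 8.09 and 0.58 FPKM against 1.15, 12.6 and 3.05 FPKM. Both were highest in Ang II + Tec replicate 2, the treated heart with the highest level of every member. Red blood cell markers summed to 396, 625 and 152 FPKM against 324, 232 and 93.0 FPKM, and lymphocyte and neutrophil markers to at most 2.65 FPKM in any library, with 1 of 5 genes passing the filter. The part of these lists in the member levels was not tested.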
